A study of Mus musculus with 6 samples.

Results

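Ferritin stores iron in nearly every mammalian cell, and a small group of other proteins brings iron in, lets it out and sets how much ferritin is made. The genes described here are Ftl1 and Fth1, which encode the light and heavy chains of ferritin, Tfrc, which encodes the transferrin receptor, Slc11a2 and Slc40a1, which encode an iron importer and the only known iron exporter of mammalian cells, and Ireb2 and Aco1, which encode the iron regulatory proteins. To these 7 coding genes was added Gm10252, a gene model that lies across the start of Ftl1 on the opposite DNA strand. They were chosen by symbol, with their values in these data known, because nearly all counts of the Ftl1 locus were listed under Gm10252. For each of the others, any gene sharing exonic bases on the opposite strand was added from the positions in the deposited table. This brought in Gm5475, opposite Slc11a2, and a gene without a symbol, ENSMUSG00000120067.1, opposite Fth1. The set thus held 10 of the 57010 genes in the table, 8 of them listed and 2 added.

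The libraries came from 2 groups of 3 wild-type mouse samples, sequenced as polyadenylated RNA. The ESC group consisted of mouse embryonic stem cells, a pluripotent cell type that self-renews in culture, grown under standard conditions. The neuron group held primary cortical neurons from cortices of embryonic day 16.5, kept for 7 days in neuronal medium. All samples are labelled wild type and none received a perturbation, and the comparison sets the pluripotent state against cultured neurons, both used as references by a study of Rai1. The labels give a batch for each sample that is the same as its group, so batch and cell state cannot be told apart. They do not say whether replicates were separate cultures or animals, or whether embryos were pooled, so p-values measure only the spread between these samples, which may be technical. The library names of neuron replicates 2 and 3, but not 1, hold the word empty, which is not explained. Public data on Rai1-deficient cells were not used here.

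Iron enters most cells bound to transferrin through the transferrin receptor, is reduced and carried out of the endosome by SLC11A2, and is then used, stored in ferritin or exported by ferroportin, the product of Slc40a1. When iron is scarce, the iron regulatory proteins bind a short hairpin in mRNA, the iron-responsive element. Bound near the start of ferritin or ferroportin mRNA they block translation, and bound in the tail of Tfrc mRNA they keep it from being degraded. Ferritin output is therefore set largely after transcription, which mRNA counts do not measure. In the brain, neurons take up transferrin-bound iron, while oligodendrocytes and microglia are known as the main ferritin-rich cells.

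The element is shown first, because it is the sequence these genes share and because that of Ftl1 lies in the exon covered by Gm10252. The coding transcripts in GENCODE mouse release M21 (GRCm38) were searched for the loop CAGTGN with 5 bases and an unpaired C before it, those 5 bases pairing with the 5 after the loop. The sequences run 5′ to 3′ as DNA, and capitals mark the loop of 6 bases.
Ftl1, 5′ UTR: gtcttgcttcaaCAGTGTttgaacggaaca
Fth1, 5′ UTR: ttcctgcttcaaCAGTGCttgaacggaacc
Slc40a1, 5′ UTR: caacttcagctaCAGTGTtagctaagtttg
Tfrc, 3′ UTR, element 1: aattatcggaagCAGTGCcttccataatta
Tfrc, 3′ UTR, element 2: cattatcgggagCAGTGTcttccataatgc
Tfrc, 3′ UTR, element 3: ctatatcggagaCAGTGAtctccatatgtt
Tfrc, 3′ UTR, element 4: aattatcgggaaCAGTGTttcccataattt
The ferritin elements carried the same base at 26 of 30 positions. No match was found in Ireb2, Aco1 or Slc11a2 by this motif, which says only that these letters and pairs are not in the transcripts searched. Among 21767 coding genes, Ftl1 and Slc40a1 included, 0.0919% held the motif in the first 300 bases of their longest transcript, against 0.0873% for the reverse strand. The Fth1 element lies outside that window, at bases 658 to 687 of its transcript. Among 2554 3′ UTRs within 20% of the length of that of Tfrc, Tfrc included, 1.21% held at least 1 match. Only that of Tfrc itself held 3 or more.

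The Ftl1 element lies in the first exon of Ftl1, and all 355 bases of that exon were found, read backwards on the other strand, within the transcript of Gm10252. The same gene model also spans the Ftl1 promoter. The 250 bases before the Ftl1 start in RefSeq (GRCm38.p6, chr7:45459887-45460136, minus strand) are given on the strand of Ftl1, because they lie wholly inside Gm10252. Capitals mark matches to GGGCGG and CCAAT, both of which were found on the reverse strand here.
Ftl1 promoter: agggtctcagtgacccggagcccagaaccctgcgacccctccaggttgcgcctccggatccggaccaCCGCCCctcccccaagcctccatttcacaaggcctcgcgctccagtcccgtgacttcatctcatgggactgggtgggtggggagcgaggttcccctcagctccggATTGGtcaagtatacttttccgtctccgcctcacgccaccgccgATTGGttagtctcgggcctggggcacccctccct
GGGCGG had 1 match, 183 bases before the start, and CCAAT had 2, at 78 and 34 bases before it. Searched on both strands, GGGCGG was present in 32.7%, CCAAT in 33.8% and TATAA in 22.8% of 32851 RefSeq promoters of this length, and TATAA was not in this window. GC made up 65.2% of the window.

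In the deposited table, Ftl1 (ENSMUSG00000050708.17) lies on the minus strand of chromosome 7 from 45107368 to 45109308, with 1340 exonic bases. Positions here and below are those of the table, whose build is GRCm39 per the submitters' processing notes. Gm10252 (ENSMUSG00000110350.2), annotated as a transcript still to be experimentally checked, lies on the plus strand from 45108893 to 45109724 and is a single exon of 832 bases. It runs from 416 bases before the Ftl1 start to 415 bases after it. The shared 355 bases make up 26.5% of the exonic bases of Ftl1 and 42.7% of those of Gm10252. A library that kept strand would separate such genes, but the strand setting of the authors' counting is not given in the sources used here. Counts are listed separately for Ftl1 and Gm10252. Whether reads over the shared bases were assigned to the strand they came from cannot be settled from counts per gene. Rises and falls given below are therefore of counts as listed under each gene. Of the exonic bases of Ftl1, 985 are covered by no opposite exon.

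**Figure D1:**
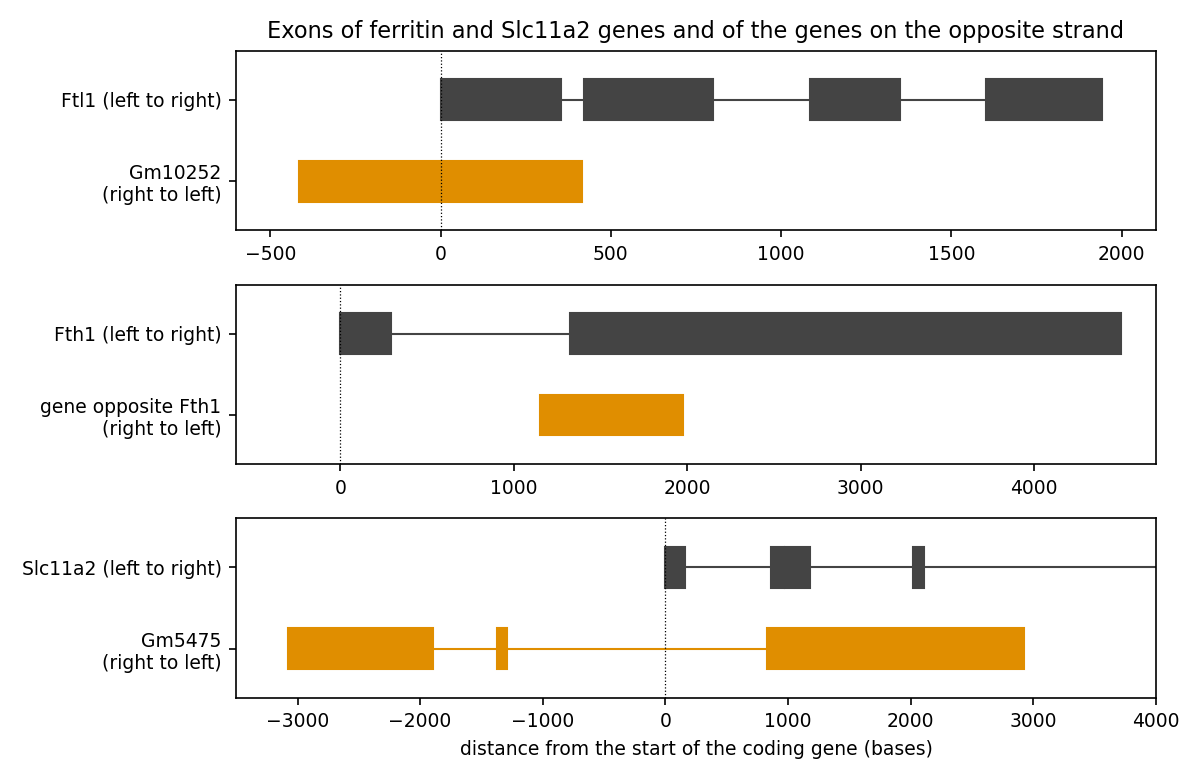
Exons (boxes) and spans (lines) at the 3 loci where an exon of an iron gene overlaps that of an opposite-strand gene, by distance in bases from the start of the iron gene. Gm10252 covers the first exon of Ftl1, the gene opposite Fth1 lies 1153 to 1972 bases downstream of the Fth1 start, and Gm5475 crosses the start of Slc11a2.

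The other 6 listed genes were placed as follows. Fth1 (ENSMUSG00000024661.8) lies on chromosome 19 from 9957962 to 9962462, plus strand, and shares 648 of its 3469 exonic bases with ENSMUSG00000120067.1. Slc11a2 (ENSMUSG00000023030.17) lies on chromosome 15 from 100285779 to 100322953, minus strand, and shares 402 of 6354 bases with Gm5475 (ENSMUSG00000087444.2), a coding gene model. Tfrc (ENSMUSG00000022797.17, chromosome 16, 32427738 to 32451612), Ireb2 (ENSMUSG00000032293.9, chromosome 9, 54771073 to 54819814), Aco1 (ENSMUSG00000028405.10, chromosome 4, 40143081 to 40198338) and Slc40a1 (ENSMUSG00000025993.11, chromosome 1, 45947228 to 45965683) had 0 opposite genes, by exon or by span.

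ESC libraries held 1368303 to 1775055 counts and neuron libraries 513425 to 624792. Levels are given as CPM, the counts scaled to a common library size of 1e6, after TMM scaling, which corrects for a few genes taking a large share of a library, and levels of different genes are compared as CPM per kilobase of exon. A count of 3 corresponded to 2.26 to 2.90 CPM in ESC and 3.92 to 4.81 CPM in neurons, and a gene at 0 may lie anywhere up to that level. Pluripotency markers summed to 166 to 249 CPM in ESC and 2.61 to 4.81 in neurons, with Pou5f1 and Nanog at 0 in every neuron library. Gm19553, opposite Pou5f1, held far more than these markers in ESC, at 13500 to 14200 CPM, and 0 in neurons. The 12 neuronal markers summed to 209 to 248 and 1080 to 1310 CPM, most of it from Nefm with 164, 168 and 139 counts in ESC, then 771, 837 and 699. The other 11 were sparse in the neuron libraries, at 13 counts or fewer each. Gm10558, opposite Map2, held 10.9 to 18.8 CPM in ESC and 928 to 1100 in neurons. Map2 (0, 0 and 1 counts in ESC, then 10, 13 and 13), Rbfox3, Dcx, Gad1 and Gad2 had more counts in neurons, while Tubb3 (10, 4 and 8, then 4, 2 and 1), Stmn2 (27, 25 and 16, then 8, 1 and 3) and Slc17a7 (64, 49 and 54, then 2, 1 and 0) had more in ESC. ESC replicate 2 differed more from the other ESC replicates than those did from each other (chi-square per degree of freedom 3.96 and 4.16, against 1.31). Of 7150 genes tested, 85.6% had an edgeR adjusted p under 0.05, with 47.0% higher and 38.6% lower in neurons.

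Of the 10 genes, 4 had enough counts to be tested, namely Gm10252, Ftl1, Fth1 and Gm5475. All 4 were lower in neurons and none higher. Since these genes were picked with this contrast known, and since 38.6% of all tested genes were called lower, nothing is read from this count and no p is given for them. The remaining 6 stayed at 8 counts or fewer in every library. In bulk RNA, fewer cells of a type and less RNA per cell cannot be told apart.

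Gm10252 was counted 42149, 24581 and 35756 times across the ESC replicates (numbered 1 to 3, in this order throughout), against 5630, 4794 and 4790 times in those of the neurons. Every ESC library was far above every neuron library, with ESC replicate 2 lowest of its group. It ranked 3 by counts among all genes in each ESC library and 5 in each neuron library. Its share of the library was 2.37%, 1.8% and 2.42% in ESC and 0.901%, 0.861% and 0.933% in neurons. After scaling, its mean level was 29300 ± 4780 CPM in ESC and 7390 ± 269 CPM in neurons (SD, n = 3 each). The log2 fold change, neuron over ESC, was -1.99 (SE 0.10), and -1.25 when libraries were scaled by total counts alone, which moved the median of all tested genes from 0.37 to 1.10.

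For Ftl1 itself the ESC libraries gave 190, 80 and 157 counts, and the neuron libraries 4, 4 and 2. ESC replicate 2 was again lowest of its group, and still well above all neuron libraries. The levels were 121 ± 37.6 CPM and 4.80 ± 1.43 CPM (SD, n = 3 each), a ratio of pooled levels, ESC over neuron, of 25.4 with an exact 95% interval, for counting error only, of 13.7 to 53.3. The log2 fold change was -4.61 (SE 0.35), and -3.89 with total counts. The neuron values rest on 4 counts or fewer in each library, which sets the width of that interval.

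Counts of the locus were thus listed almost wholly on the strand opposite the ferritin gene. Of the counts of Ftl1 plus Gm10252, those of Ftl1 made up 0.449%, 0.324% and 0.437% in ESC and 0.071%, 0.0834% and 0.0417% in neurons. The groups did not overlap, with means of 0.403% ± 0.069 and 0.0654% ± 0.0214 (SD, n = 3 each). Exact 95% intervals ran from 0.257% to 0.517% over the ESC libraries and from 0.00505% to 0.213% over the neuron libraries. Leaving out 1 library at a time moved the ESC mean between 0.381% and 0.443% and the neuron mean between 0.0563% and 0.0772%.

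The same layout was common in the table. At 303 other coding genes whose only opposite exons belong to non-coding genes, and whose loci had at least 100 counts in each library, the coding gene held a median of 1.00% to 1.37% of the counts in ESC and 1.46% to 1.65% in neurons. It held less than 50% at 292 to 295 of these 303 loci. Ftl1 lay below the median in each library, with 58 to 62 of the 303 lower still in ESC and 44 to 54 in neurons. Its own share was lower in neurons than in ESC, as it was at 149 of the 303 loci (49.2%). Genes that share exonic bases with an opposite gene are 16.8% of the table and held 88.5% to 91.9% of all counts. The reason for this distribution was not tested.

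**Figure D2:**
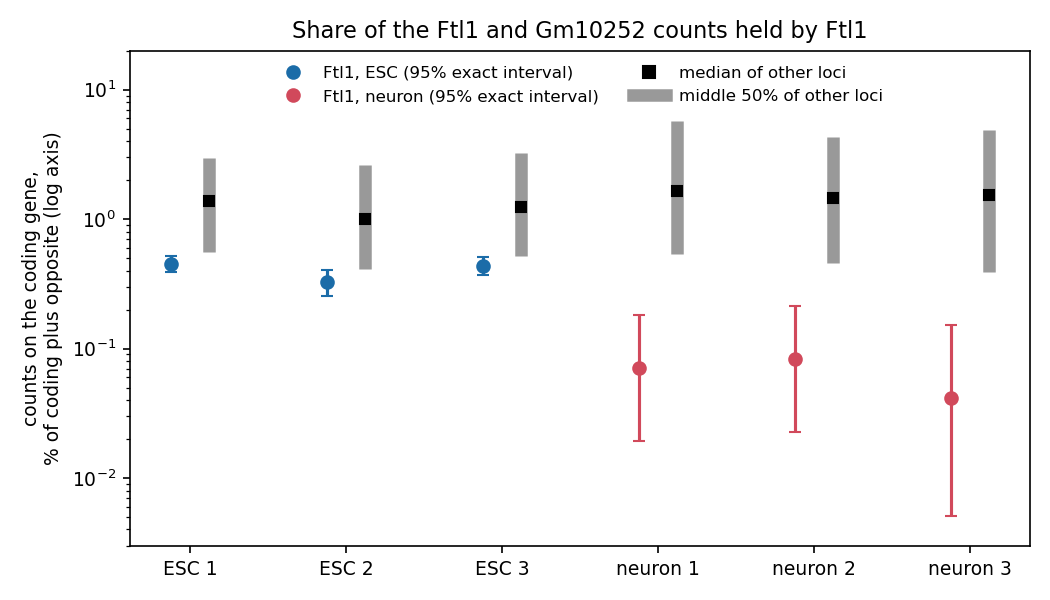
Share of locus counts listed under the iron gene, in percent on a log axis, for Ftl1 in each of the 6 libraries with exact 95% intervals, beside the median and quartiles of 303 other coding genes opposite non-coding genes. Ftl1 lies below the median in each library, at 0.324% to 0.449% in ESC and 0.0417% to 0.0834% in neurons.

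At Fth1 nearly all counts were instead listed under the coding gene, on 3 to 44 counts of the locus in a library. The opposite gene there does not cover the Fth1 start, unlike Gm10252 at Ftl1, so these loci are not like for like. RefSeq gives 2 starts for Fth1, and which of them was used was not tested. Fth1 gave 44, 17 and 44 counts in ESC, against 9, 3 and 10 in neurons, and its opposite gene had a single count, in neuron replicate 3. Scaled levels were 33.1, 16.4 and 39.8 CPM in ESC and 11.7, 4.47 and 16.0 CPM in neurons, so the lowest ESC library lay only just above the highest neuron library. Means were 29.8 ± 12 and 10.7 ± 5.84 CPM (SD, n = 3 each). The log2 fold change was -1.48 (SE 0.39) and ranged from -1.87 to -1.19 when single libraries were left out. With total counts it was -0.75.

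Per kilobase, the order in ESC was Gm10252 at 35200 ± 5740, Ftl1 at 90.2 ± 28.1, Gm5475 at 17.1 ± 2.15 and Fth1 at 8.59 ± 3.47 CPM per kb. The neighbours in this order did not overlap in ESC. In neurons the order was Gm10252 at 8880 ± 324, Gm5475 at 7.13 ± 1.23, Ftl1 at 3.58 ± 1.06 and Fth1 at 3.10 ± 1.68 CPM per kb (SD, n = 3 each). In neurons the ferritin chains differed by less than either SD. Both chains are usually among the abundant mRNAs of mammalian cells, whereas all 7 coding genes together held between 0.00833% and 0.0148% of the counts in ESC and between 0.0018% and 0.00288% in neurons.

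**Figure D3:**
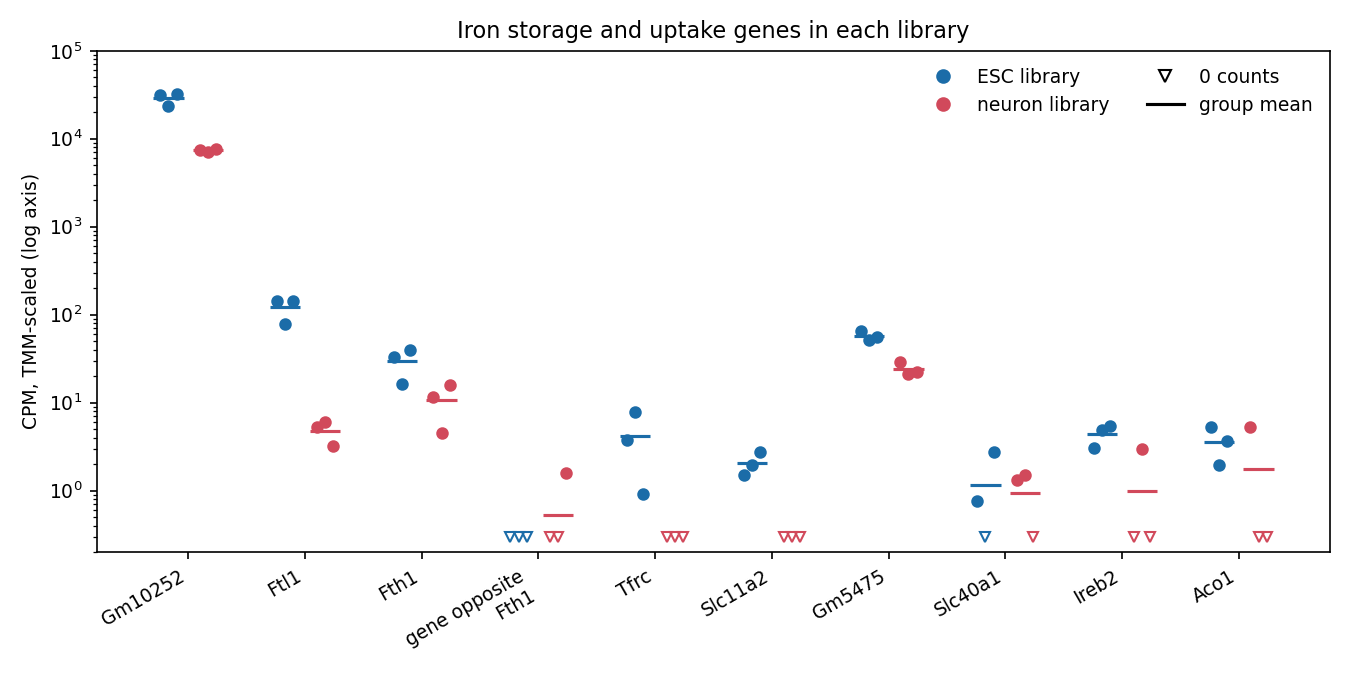
TMM-scaled CPM, on a log axis, for the 10 genes in each of the 6 libraries, with points for libraries and lines for group means. Gm10252 lies at 7140 CPM or more in every library, Ftl1 at 77.4 CPM or more in ESC and 5.96 or less in neurons, and 6 genes stay at 8 counts or fewer.

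Ferritin has many processed copies in the mouse genome, and reads that match several places may be dropped or moved by the counting, whose treatment of them is not given in the sources used here. Of 15 ferritin copies found by symbol, 12 had no count in any library, among them Ftmt, the mitochondrial ferritin, and all Fthl17 genes. The remaining 3 were Ftl1-ps1, Ftl1-ps2 and Ftl2-ps, with at most 4 counts in a library and 16 in all. The values of Ftl1 and Fth1 and of these copies are uncertain for that reason.

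Among the uptake genes, Tfrc had 5, 8 and 1 counts in ESC and none in neurons. The ESC libraries differed widely, and replicate 2, lowest for ferritin, was highest here. The ESC mean of 4.14 ± 3.43 CPM (SD, n = 3) lay within the 3.92 to 4.81 CPM that a single neuron library at 0 allows. With libraries pooled and a floor of 3 counts for the neurons together, the ESC level was at least 2.77 times theirs. That bound leaves out the wide spread between the ESC libraries. Slc11a2, the endosomal importer, had 2, 2 and 3 counts in ESC and none in neurons. Its ESC mean of 2.05 ± 0.613 CPM (SD, n = 3) was below the level that a single neuron library at 0 allows. No difference could be read from single libraries at this depth. The pooled bound was 1.39, on 7 counts in all, and leaves out counting error in ESC.

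At the Slc11a2 locus most counts again stood on the other strand. Gm5475 was counted 87, 53 and 62 times in ESC and 22, 14 and 14 times in neurons, without overlap between the groups. Levels were 57.6 ± 7.22 and 24 ± 4.15 CPM (SD, n = 3 each), and the log2 fold change was -1.25 (SE 0.26), or -0.52 with total counts. Slc11a2 made up 2.25%, 3.64% and 4.62% of the locus in ESC and 0% of it in neurons, where its opposite gene had at most 22 counts.

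The exporter gene Slc40a1 gave 1, 0 and 3 counts in ESC but 1, 1 and 0 in neurons, and the groups overlapped. The ratio of pooled levels, ESC over neuron, was 1.19 with a counting interval of 0.17 to 13.1, so no difference was detectable at this depth. The iron regulatory proteins were as sparse. Ireb2 gave 4, 5 and 6 counts in ESC, against 0, 2 and 0 in neurons, a ratio of 4.46 with an interval of 1.04 to 40.2. Aco1, which also serves as the cytosolic aconitase, was counted 7, 2 and 4 times in ESC and 4, 0 and 0 times in neurons, and its groups overlapped, with a ratio of 1.93 and an interval of 0.597 to 8.13.

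Genes with the pattern most like these were found by the Euclidean distance of centred log2 CPM over the 6 libraries, where small values mean like profiles. Nearest to Gm10252 were Gm43372 (distance 0.116, log2 fold change -1.96), Mir6357 (0.166, -2.02) and Gm37401 (0.175, -2.0). Each of these 3 also shares exonic bases with a coding gene on the other strand, namely Abhd11, Poli and Rhoa. Nearest to Ftl1 was Gm42529 (0.34, -4.58), opposite Brca2, nearest to Fth1 was Gm14167 (0.616, -1.47), opposite Fkbp1a, and nearest to Gm5475 was Kpna2-ps (0.20, -1.24), opposite Med20. Genes with an opposite exon held 88.5% to 91.9% of all counts, so nothing is read from this sharing.

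The wider pathway was described with 107 further genes in 10 lists by function, of which 106 were matched. A count was present for 89, and 35 had enough counts to be tested. In neurons 20 rose and 7 fell, and 8 did not pass the test, so that 77.1% were called beside 85.6% of all tested genes. Their median log2 fold change was 0.56, beside 0.37 over all tested genes. Raw counts are printed for each library in the order given above, ESC first, while tests and fold changes take account of the smaller neuron libraries. With no filter on low counts, 89 were tested and 36 called, and the balance turned to 16 higher and 20 lower.

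Among genes of iron uptake, 2 of 3 tested rose. Trf, the iron carrier transferrin, gave 1, 2 and 0 counts in ESC but 15, 17 and 17 in neurons (log2 fold change 4.58, SE 0.56, adjusted p = 2.24e-09). Steap2, a metalloreductase, had 8, 8 and 9 and then 80, 68 and 56 counts (3.75, SE 0.28, adjusted p = 4.9e-15). Every neuron library was above every ESC library for both.

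Of the 3 tested genes of export and systemic control, Cp fell and Tmprss6 rose. Cp, the ferroxidase ceruloplasmin that works with ferroportin, gave 89, 66 and 77 counts in ESC, against 13, 14 and 22 in neurons (log2 fold change -1.48, SE 0.26, adjusted p = 3.54e-06). Tmprss6, a protease of the liver hepcidin pathway, had 3, 0 and 3 and then 41, 31 and 25 counts (4.66, SE 0.45, adjusted p = 5.36e-12).

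Among genes of ferritin loading and turnover, the iron chaperone gene Pcbp1 fell, from 118, 108 and 96 counts to 15, 5 and 7 (log2 fold change -2.82, SE 0.28, adjusted p = 1.77e-11). Its relative Pcbp2, with 227, 158 and 195 counts in ESC and 167, 156 and 148 in neurons, rose from 167 ± 12.3 to 229 ± 10 CPM once libraries were scaled (SD, n = 3 each; log2 fold change 0.46, SE 0.14, adjusted p = 0.00325), a call lost with no filter on low counts (adjusted p = 0.117). Ncoa4, the receptor that brings ferritin to lysosomes, was chosen after its values were seen, as was Alas2 below. Ncoa4 was counted 38, 37 and 29 times in ESC and 9, 21 and 9 times in neurons, and did not pass the test (log2 fold change -0.66, adjusted p = 0.0578).

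All 3 tested genes of other mRNAs with an iron-responsive element rose, beside 47.0% of all tested genes. The list held 6 genes, and the rest had too few counts to be tested. Of these, Epas1 had 10, 8 and 9 and then 0, 2 and 0 counts. Cdc14a had 3, 0 and 1 and then 0, 0 and 1, and Cdc42bpa 7, 0 and 6 and then 5, 3 and 9. Pfn2, a profilin of neurons, went from 1, 4 and 0 to 8, 11 and 8 counts (log2 fold change 3.07, SE 0.57, adjusted p = 6.91e-06). Another was Alas2, the erythroid form of the first enzyme of haem synthesis, with 24, 23 and 17 and then 63, 42 and 44 counts (1.95). The haemoglobin genes looked for, Hba-a1, Hba-a2, Hbb-bs and Hbb-bt, were at 0 in all libraries of both groups. The erythroid markers summed to 11.6 to 23.5 CPM in ESC, mostly from Klf1, and to 0 to 4.81 CPM in neurons.

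Of 5 tested genes of mitochondrial iron-sulfur assembly, 3 rose and 2 fell. Bola3, a late assembly factor, rose from 5, 1 and 1 to 15, 13 and 11 counts (log2 fold change 3.15, SE 0.49, adjusted p = 3.31e-07). Cisd2, an iron-sulfur protein of the endoplasmic reticulum and outer mitochondrial membrane, fell from 68, 45 and 54 to 8, 4 and 0 counts (-3.02, SE 0.40, adjusted p = 1.75e-08). In the cytosolic pathway 2 of 4 rose and 1 fell. Nubp1, part of the scaffold on which clusters are built, rose from 28, 10 and 32 to 319, 303 and 248 counts (4.38, SE 0.20, adjusted p = 4.19e-20), and Narfl, also called Ciao3, rose from 141, 73 and 100 to 246, 158 and 148 (1.56, SE 0.17, adjusted p = 7.08e-11).

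Of the tested haem genes, 2 of 3 in synthesis and 4 of 5 in transport and breakdown rose and none fell. Over all tested genes 47.0% rose and 38.6% fell. The lists held 11 and 13 genes, and most of them had too few counts to be tested. Among these, Blvrb had 12, 5 and 6 and then 0, 0 and 1 counts, and Hmox1 had 2, 1 and 4 and then none. Pgrmc1, also not tested, had 4, 4 and 3 and then 7, 3 and 3. Nothing is therefore read from the absence of falls. Abcb10, a mitochondrial transporter, had 22, 10 and 16 and then 21, 15 and 18 counts and passed narrowly (log2 fold change 0.92, SE 0.33, adjusted p = 0.0101), and lost its call with no filter (adjusted p = 0.0666) and without ESC replicate 2 (adjusted p = 0.0566). The haem transporter genes Slc48a1 (3.32, SE 0.44, adjusted p = 1.39e-08) and Slc46a1 (2.09, SE 0.17, adjusted p = 1.11e-13) rose as well, the latter from 79, 45 and 69 to 160, 179 and 145 counts.

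Ferroptosis is cell death by iron-driven lipid peroxidation, and of 5 tested genes of its control 2 rose and 2 fell. This list held 9 genes, so the split leaves out those too sparse for the test. Of the latter, Gpx4 dropped from 21, 10 and 18 counts to 1, 0 and 0. Slc7a11 dropped from 6, 7 and 4 to 0, 1 and 1, and neither gene overlapped between groups. Acsl4 had a single count, in ESC replicate 1, and Gch1 had none. An even balance is therefore not read from the tested genes. Slc3a2, a subunit of the cystine importer, fell from 97, 60 and 73 to 15, 10 and 6 counts (log2 fold change -2.13, SE 0.29, adjusted p = 1.56e-08). Keap1, which keeps the antioxidant factor NRF2 low, fell from 52, 30 and 27 to 4, 4 and 1 (-2.80, SE 0.44, adjusted p = 2.96e-07). The list of iron regulatory protein turnover had 1 tested gene, Cul1, which did not pass.

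**Figure D4:**
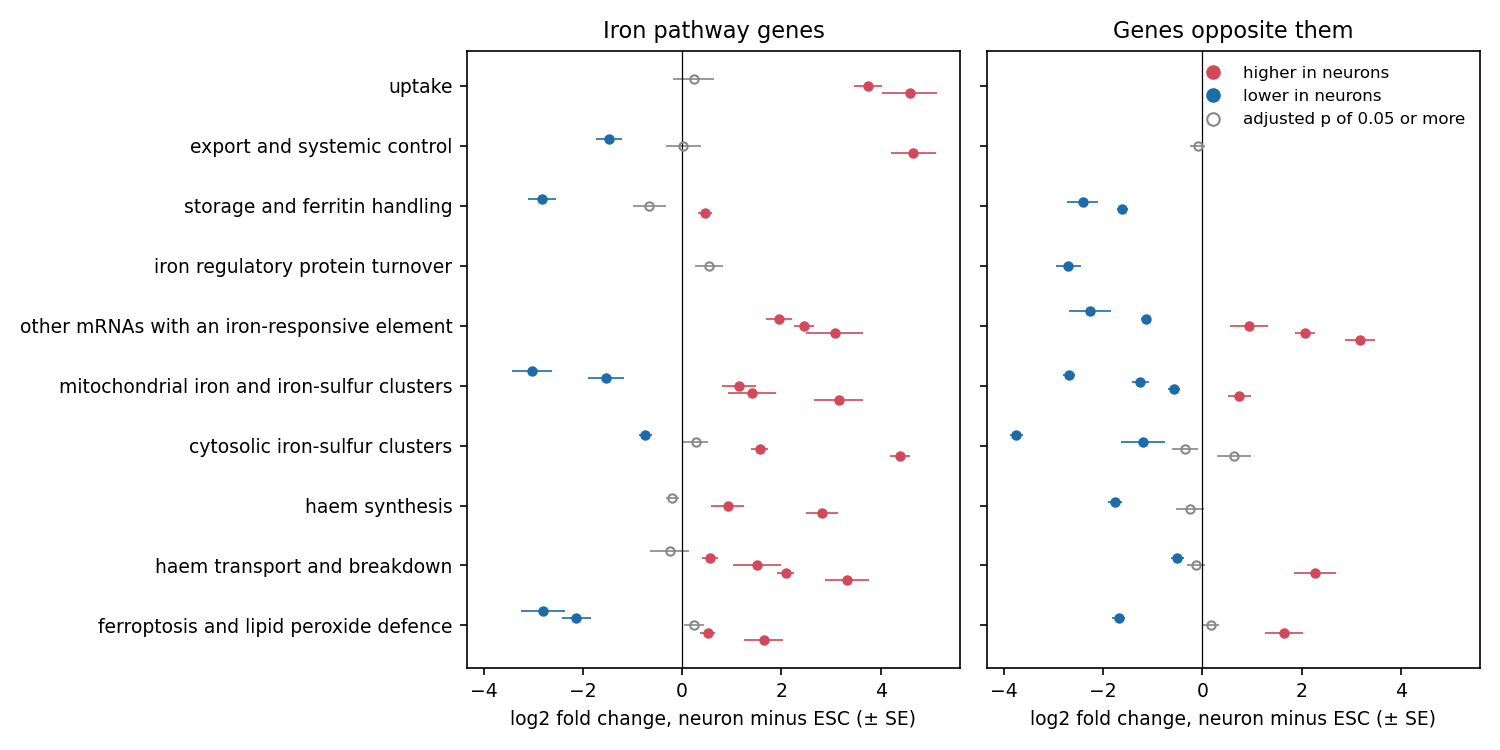
Log2 fold change, neuron over ESC, with standard error, for the tested iron pathway genes by list, and for the genes that share exonic bases with them on the opposite strand. Of the 35 pathway genes 20 rose and 7 fell, and of 25 opposite genes 6 rose and 13 fell. Over all tested genes 47.0% rose and 38.6% fell. With no filter on low counts the splits were 16 and 20 for pathway genes and 5 and 14 for opposite genes. With total counts they were 26 and 6, and 10 and 10.

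The pathway genes stood opposite 36 other genes, of which 25 were tested. Here 6 rose and 13 fell, so that 76.0% were called, beside 85.6% of all tested genes, 47.0% higher and 38.6% lower. The median log2 fold change was -0.50, and with total counts the split became 10 and 10. Over the table, the 532 tested coding genes with only non-coding genes opposite had a median of 0.77, and the 1455 tested non-coding genes opposite such genes had -0.14, with 636 higher and 668 lower. Tvp23a, which shares 1341 bases with Nubp1, fell from 1894, 1364 and 1513 to 81, 62 and 67 counts (log2 fold change -3.75, SE 0.13, adjusted p = 3.6e-26), while Nubp1 rose. Map3k12, a kinase gene opposite Pcbp2, fell from 3397, 3678 and 3038 to 739, 628 and 624 counts (-1.61, SE 0.11, adjusted p = 6.18e-16). Gm44986, opposite Ndufab1, fell from 2513, 1676 and 2201 to 186, 211 and 184 counts (-2.69, SE 0.12, adjusted p = 1.69e-22).

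At 4 pathway loci the listed gene and its partner moved alike. Gm16754, opposite Keap1, fell with it, from 916, 912 and 709 to 164, 174 and 136 counts (-1.68), and 1600020E01Rik, opposite Pcbp1, fell from 91, 97 and 64 to 6, 9 and 13 (-2.41). Hdac7, opposite Slc48a1 (2.27), H2afy2, opposite Aifm2 (1.65), and Coq8a, opposite Cdc42bpa (3.18), rose. Aifm2 itself passed the test, but not without neuron replicate 2 (adjusted p = 0.172), and Cdc42bpa was not tested. Further partners that fell were A930035D04Rik opposite Cul1 (-2.70), Apex2 opposite Alas2 (-2.26), Gm45890 opposite Abcb10 (-1.75), Romo1 opposite Nfs1 (-1.25), Coq9 opposite Ciapin1 (-1.20) and Cdip1 opposite Hmox2 (-0.50). The call for Coq9 was lost with total counts (adjusted p = 0.321), with a mean of at least 10 counts (0.0857) and without neuron replicate 3 (0.0567). Cdip1 turned to 0.23 with total counts (adjusted p = 0.0967) and lost its call with a mean of at least 10 counts (-0.14, adjusted p = 0.316).

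Where both genes of such a pair were called, 4 of 11 pairs moved in the same direction (36.4%), beside 660 of 1048 pairs over the whole table (63.0%). The opposite genes held more counts than the pathway gene at 18 of 32 loci. Among pathway genes with no opposite exon, 18 were tested, and 10 rose and 3 fell. Among those with an opposite exon 17 were tested, and 10 rose and 4 fell. Whether the sharing of bases bears on these directions was not tested.

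Counts listed under markers of other cell types that carry much ferritin or iron were sparse apart from a few genes. Of 10 microglial markers 6 were at 0 in all libraries of both groups, among them Tmem119, Trem2 and the C1q genes. The list summed to 201 to 266 CPM in ESC and 130 to 145 in neurons, most of it from Csf1r. The 10 oligodendrocyte lineage markers summed to 2590 to 2900 CPM in ESC and 668 to 749 in neurons, and Cnp alone gave 3474, 2934 and 2802 and then 345, 278 and 235 counts. Other genes of that list ran the other way, with 25, 37 and 32 and then 183, 154 and 157 counts for Mog and 1, 1 and 2 and then 13, 12 and 8 for Olig1, and Mag was at 0 in both groups. The 9 astrocyte markers summed to 5.80 to 10.9 CPM in ESC and 54.5 to 87.4 in neurons, where Aldh1l1 was at 0. Fibroblast markers, which feeder cells would carry, summed to 69.7 to 95.6 and 4.81 to 11.9 CPM. Fn1, with 125, 65 and 74 and then 2, 7 and 1 counts, made up nearly all of the sum in ESC. The collagen genes Col1a1, Col1a2 and Col3a1 had at most 1 count in a library. Genes sharing exonic bases on the other strand held further counts. The 2 opposite astrocyte markers summed to 169 to 199 CPM in ESC and 1270 to 1840 in neurons, there mostly from Gm13872, opposite Slc1a2. The 4 opposite oligodendrocyte lineage markers summed to 60.6 to 63.8 and 389 to 501 CPM. For microglial markers these sums were 10.5 to 12.6 and 27.2 to 44.4 CPM, and for fibroblast markers 1070 to 1860 and 52.9 to 83.4. The part of such cells in the ferritin values was not tested.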

How the data were processed

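Polyadenylated RNA of 3 ESC and 3 cortical neuron samples was sequenced as paired ends after oligo-dT priming, per the labels' protocols. The deposited values are whole-number counts for each gene, unnormalized, which the authors listed with position, strand and exonic length. The submitters' processing notes name cutadapt, STAR and RSEM and the build GRCm39. The counting step, its strand setting and its treatment of reads matching several places are not given in the sources used here. Symbols came from GENCODE M21 by identifier, for 52029 of 57010 genes (91.3%), and 65 symbols carried by more than 1 gene were not used.

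The counts were tested as deposited, with edgeR 4.0.16 in R 4.3.3. Genes were kept by filterByExpr (minimum count 10), scaled by TMM and compared with glmQLFit (robust) and glmQLFTest over all 6 samples, with Benjamini-Hochberg adjustment over the 7150 tested genes and a threshold of 0.05. TMM factors were 0.774 to 0.779 in ESC and 1.28 to 1.30 in neurons. Standard errors are the log2 fold change divided by the square root of F. Overlaps needed at least 1 shared exonic base (bedtools 2.31.1). Intervals are exact and, like the floor of 3 counts, cover counting error only. On simulated counts for this comparison, with 200 of 7150 genes changed 4-fold, 89% of them were called, and 2.73% of calls were unchanged genes. The simulation used a common dispersion for all genes and drew the direction of each change at random. In the data 85.6% of tested genes were called, so these rates may not hold for those calls.

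The genes, lists and rules were chosen with earlier results of these data known. Named were all members and their opposite genes, the ferritin copies, the nearest genes in pattern, and per pathway list the 2 called genes and 2 called opposite genes with the largest change and an average log2 CPM of at least 3. Some genes meeting this rule are not reported here. Groups share replicate numbers in the titles. Alternatives were DESeq2 1.42.0 size factors and its Wald test, total counts, a mean of at least 10 counts as the filter or none at all, a replicate block and leaving out each library.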

Additional observations from a re-analysis of the deposited data

How the results depend on the processing

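Of 7150 tested genes 6119 were called, and 11762 were called with no filter on low counts, by the construction of testing more genes. Leaving out 1 library gave 5430 to 7353 calls, and DESeq2's Wald test 5774. Total counts moved the share of calls that were higher in neurons from 54.9% to 65.5%. It was 49.8% with a mean of at least 10 counts. All 4 tested members kept a negative log2 fold change under each alternative, with total counts giving the smallest for each. Pathway calls numbered 23 to 30, and opposite genes 16 to 19, without 1 library. With total counts the share of pathway calls that were higher moved from 74.1% to 81.2%, and opposite genes moved from 6 higher and 13 lower to 10 of each.

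The shared replicate numbers do not pair the samples: same-numbered libraries deviated from their group means with correlations of 0.019, 0.004 and -0.022. With the replicate number as a block 6088 genes were called, 28 of the pathway and 19 opposite genes, and Gm10252, Ftl1, Fth1 and Gm5475 had log2 fold changes of -1.97, -4.60, -1.47 and -1.26. Depth limits Tfrc, Slc11a2, Slc40a1, Ireb2 and Aco1 most, since each had 8 counts or fewer in every library.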
